A study of Homo sapiens with 12 samples.

Results

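The genes described here are 45 genes of autophagy and of the lysosome, of 26475 gene symbols measured by RNA-seq in MIAPaCa2 cells. They were chosen by symbol and by known function, with earlier results of these data known. They comprise 26 autophagy factors, 16 lysosomal proteins and the 3 MiT transcription factors TFEB, TFE3 and MITF. All 45 were found in the count table and all 45 passed the filter on low counts, which left 14582 genes. MIAPaCa2 is an established pancreatic ductal adenocarcinoma (PDAC) cell line, and oxamate is a pyruvate analog that inhibits lactate dehydrogenase A (LDHA). There were 4 groups of 3 libraries: parental cells without oxamate, parental cells treated with oxamate, oxamate-resistant cells without oxamate and oxamate-resistant cells treated with oxamate. The study calls the cells without oxamate vehicle-treated, and the labels call them untreated. The resistant cells were the polyclonal survivors of 1 parental line after 4 weeks in 10 mM oxamate, so the comparison between the lines rests on 1 derivation. The dose and time of the oxamate treatment that preceded this RNA-seq were not given in the sources used here, nor was it stated whether the 3 libraries of a group came from separate cultures, so the p-values measure the spread between these libraries, which may be technical.

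Autophagy encloses cell material in a double membrane and delivers it to the lysosome. The ULK kinase complex starts the process, a class III phosphatidylinositol 3-kinase complex marks the growing membrane, and paired conjugation systems attach proteins of the ATG8 family to its lipid, where they hold cargo receptors. In the lysosome, acid made by the V-ATPase activates hydrolases that break the cargo down for reuse. TFEB, TFE3 and MITF bind the CLEAR element in the promoters of many of these genes and are held in the cytoplasm by mTORC1 when nutrients are plentiful. PDAC cells are known for a high basal need for autophagy.

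Promoters are shown because the MiT regulators are known to act through the CLEAR element in them. Promoters of 38 of the 45 genes were found in the RefSeq table (GRCh38.p14), each 300 bases long from 250 before to 50 after the start of the gene. The CLEAR core, TCACGTGA, was present in 6 of them (15.8%) and its inner E-box, CACGTG, in 9 (23.7%). Both words read the same on either strand, and every TCACGTGA contains a CACGTG. Of all 35116 promoters in the table, 0.98% held TCACGTGA and 7.26% held CACGTG, and among the genes tested with a promoter the shares were 2.08% and 12.2% of genes. By class, 5 of 11 lysosomal genes held TCACGTGA (45.5%) and 7 of 11 held CACGTG (63.6%). The shares were lower in the further lists of lysosomal genes described below. There TCACGTGA was in 3 of 26 promoters of luminal proteins (11.5%), 4 of 23 of membrane proteins (17.4%) and 1 of 15 of V-ATPase subunits (6.67%). CACGTG was in 5, 8 and 3 of them. The shares among the 11 thus describe the genes chosen and not lysosomal genes at large. Of 24 autophagy factors, 1 held TCACGTGA (4.17%) and 2 held CACGTG (8.33%). None of the 3 MiT genes held either word. One window from each of the 9 promoters is given below 5′ to 3′ on the strand of the gene, with TCACGTGA in capitals in the first 6 and CACGTG in capitals in the last 3.
GAA, chr17:80101484-80101531, plus strand: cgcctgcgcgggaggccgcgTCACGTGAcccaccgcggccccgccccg
CTSA, chr20:45891289-45891334, plus strand: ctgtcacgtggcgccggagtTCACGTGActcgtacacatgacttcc
LAMP1, chr13:113297190-113297237, plus strand: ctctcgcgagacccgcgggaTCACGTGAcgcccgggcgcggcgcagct
MCOLN1, chr19:7522562-7522609, plus strand: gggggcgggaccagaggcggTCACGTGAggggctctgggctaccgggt
ATP6V0D1, chr16:67481190-67481237, minus strand: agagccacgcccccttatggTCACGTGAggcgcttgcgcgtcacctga
ATG3, chr3:112561941-112561968, minus strand: gagtctagtgTCACGTGAggccccggtg
NEU1, chr6:31862922-31862967, minus strand: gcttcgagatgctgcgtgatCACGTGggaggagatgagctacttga
CTSD, chr11:1763949-1763994, minus strand: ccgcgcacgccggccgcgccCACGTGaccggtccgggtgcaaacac
ATG14, chr14:55411831-55411871, minus strand: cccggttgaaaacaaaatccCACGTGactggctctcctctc

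The libraries held 46698729 to 114222169 expected counts each, and every parental library was deeper than every resistant library. A floor of 3 counts corresponded to 0.0283 to 0.0581 in counts-per-million units (CPM), under the level of every member in every library. The keratins KRT8, KRT18 and KRT19 and vimentin (VIM) were abundant in every group, whereas the epithelial adhesion gene EPCAM was under the floor on average in all 4 groups. The summed level of these 5 tumour cell markers, keratins, VIM and EPCAM, was 12670 to 13780 CPM in parental and 7734 to 8156 CPM in resistant libraries. All 4 of them that could be tested were lower in resistant cells. The summed endothelial markers reached at most 1.24 CPM. Of the immune markers PTPRC and CD3E were at or under the floor, and CD14, CD68 and ITGAM were higher after oxamate in parental cells. Of the 6 fibroblast markers DCN and LUM were at or near 0 and 3 of the 4 tested (COL1A1, COL1A2 and COL3A1) were higher after oxamate in parental cells. Their sum, nearly all COL1A2, was 725 to 743.4 CPM after vehicle and 968.9 to 987.1 CPM after oxamate in parental cells, and 723.9 to 757 and 798.3 to 816.4 CPM in resistant cells. The part of these markers in the results below was not tested. LDHA, the target of oxamate, was at 1074 ± 13.6 CPM in vehicle-treated and 1647 ± 87.6 CPM in oxamate-treated parental cells, and at 960.0 ± 13.8 and 1213 ± 13.4 CPM in resistant cells (mean ± SD, n = 3). The RNAs that stay in the nucleus (MALAT1, NEAT1, KCNQ1OT1 and MIAT) moved with the groups. Their summed level was 320.6 to 357.4 CPM in vehicle-treated parental cells, 544.3, 556.9 and 1187 CPM in oxamate-treated parental cells, 533.5, 582.7 and 1112 CPM in vehicle-treated resistant cells and 1080 to 1407 CPM in oxamate-treated resistant cells. Results are given below with and without the 2 libraries at 1187 and 1112 CPM (replicate 3 of their groups) where they bear on them.

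The first comparison asked how the genes responded to oxamate in parental cells. ATG8 family members and lysosomal hydrolases were higher after oxamate, while the ULK complex members RB1CC1 and ATG13, the membrane factors ATG2B and WIPI1 and the regulator MITF were lower. Of the 45 genes 32 changed at an adjusted p under 0.05, 19 higher and 13 lower, or 71.1%, beside 58.7% of all genes tested. The genes higher made up 42.2% of the 45, beside 28.3% of all genes, and the genes lower 28.9%, beside 30.4%. No member changed more than 1.5-fold, as 9.38% of all genes did (5.32% higher and 4.06% lower). Nor did any by the study's rule of p under 0.05 and over 1.5-fold, which 9.88% of all genes met (5.69% higher and 4.19% lower). Here and below that rule was applied to unadjusted p-values of edgeR. The study used DESeq2, and its methods did not state whether p was adjusted. It reported fewer changed genes than this rule called here in each comparison between groups, so the shares given are not its own. Adjusted p-values here and below come from the quasi-likelihood test of edgeR, with the Benjamini-Hochberg adjustment over all 14582 genes, and fold changes are on the log2 scale with their standard errors. RNA came from whole cultures, so fewer cells with a transcript and less of it per cell cannot be told apart.

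The 4 ATG8 genes encode the small ubiquitin-like proteins that are attached to the autophagosome membrane, and all 4 rose in parental cells. MAP1LC3B, which encodes the standard autophagosome marker LC3B, was at 247, 253 and 261 CPM after vehicle and at 338, 337 and 325 CPM after oxamate. The groups did not overlap, and the log2 fold change was 0.40 ± 0.0267 (edgeR adjusted p = 6.31e-09). GABARAPL1 was at 75.9, 76.9 and 77.4 CPM after vehicle and at 96.8, 94.3 and 96.2 CPM after oxamate, all 3 above every vehicle library. GABARAP was at 162, 157 and 154 CPM after vehicle and at 197, 195 and 183 CPM after oxamate, again without overlap. The log2 fold changes were 0.32 ± 0.0263 for GABARAPL1 and 0.28 ± 0.0296 for GABARAP. GABARAPL2 rose by 0.16 ± 0.0286 on the log2 scale. The summed level of the family was 543.4 to 551.8 CPM after vehicle and 670.3 to 699.4 CPM after oxamate.

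**Figure D1:**
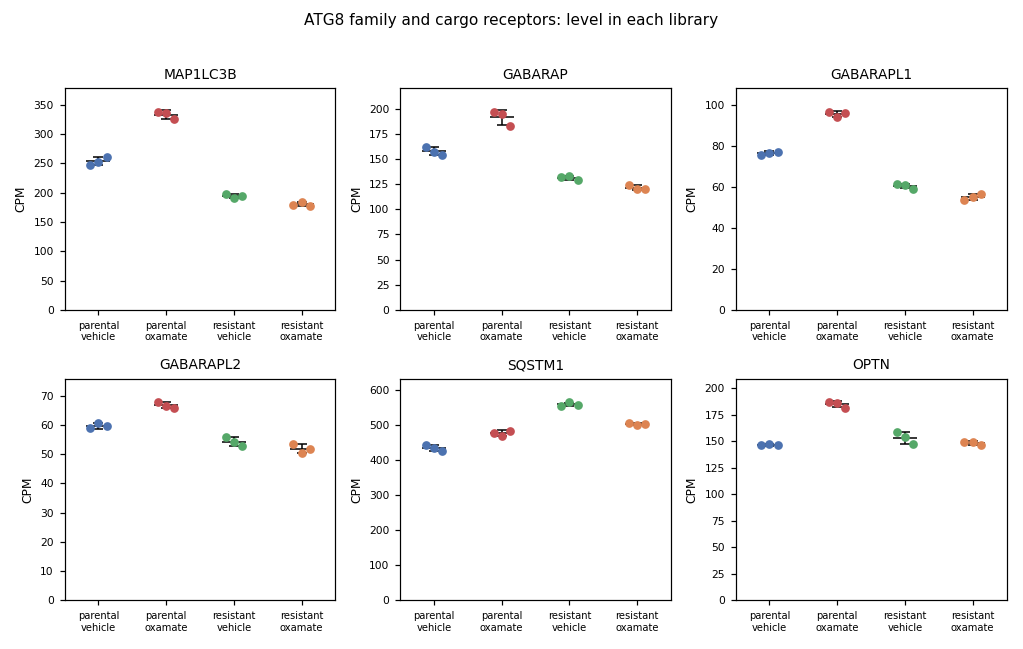
Level in CPM (linear axes from 0) of ATG8 family genes and cargo receptors in each of the 12 libraries, by group. Points are libraries, the horizontal bar is the mean and the error bar the SD of 3 libraries. The 3 oxamate-treated parental libraries sit above the other 9 for each ATG8 gene, from 325 to 338 CPM for MAP1LC3B, whereas SQSTM1 is highest in vehicle-treated resistant cells.

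The luminal proteins of the lysosome also rose in parental cells, with 8 of 9 higher and 1 lower and a median log2 fold change of 0.26, beside 0.00 over all genes. NEU1, the sialidase that removes terminal sialic acids, was at 50.9, 49.0 and 50.7 CPM after vehicle and at 65.6, 65.8 and 60.8 CPM after oxamate. The groups did not overlap, and the log2 fold change was 0.35 ± 0.0341 (edgeR adjusted p = 3.23e-07). NPC2, the carrier that hands cholesterol to NPC1, was at 148, 148 and 147 CPM after vehicle and at 188, 188 and 184 CPM after oxamate, a log2 fold change of 0.34 ± 0.0282 without overlap. GAA, the acid alpha-glucosidase that breaks down glycogen, rose by 0.30 ± 0.0239. HEXA, the alpha subunit of beta-hexosaminidase A, rose by 0.27 ± 0.0249. CTSA, the protective protein of the NEU1 complex, rose by 0.26 ± 0.0228. The aspartic protease CTSD rose by 0.23 ± 0.0252, the alpha-galactosidase GLA by 0.21 ± 0.0314 and the cysteine protease CTSB by 0.19 ± 0.0284. CTSL, another cysteine protease, was the exception and went from 183, 179.7 and 175 CPM to 171, 164 and 163 CPM, a log2 fold change of -0.11 ± 0.0313 (edgeR adjusted p = 0.00526). The call for CTSL was lost when nuclear-retained RNA was a covariate of the fit (adjusted p = 0.369), as were those of MCOLN1 (0.174), ATG5 (0.227), ATP6V0D1 (0.674) and ATP6V1H (0.125) described below.

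Among the membrane proteins of the lysosome, the cholesterol exporter NPC1 fell by 0.21 on the log2 scale and the calcium channel MCOLN1 rose by 0.19. LAMP2 passed the test at 0.07 (edgeR adjusted p = 0.0464), with overlapping libraries, and LAMP1 was at 0.03 (edgeR adjusted p = 0.391). LAMP1 and LAMP2 encode the main glycoproteins of the lysosomal membrane. The LAMP2 call was lost without parental vehicle replicate 1 or 2 or parental oxamate replicate 1 or 2 (adjusted p = 0.104 to 0.197). The MCOLN1 call was lost without parental oxamate replicate 3 (adjusted p = 0.118), the library rich in nuclear-retained RNA, or without parental vehicle replicate 2 (0.0612). Of the V-ATPase subunits, ATP6V0D1 and ATP6V1H were lower by 0.11 and 0.12 on the log2 scale and ATP6V1A was at 0.05 (edgeR adjusted p = 0.239). Both lower calls of the V-ATPase were lost without parental oxamate replicate 3 (adjusted p = 0.051 for ATP6V0D1 and 0.059 for ATP6V1H), and that of ATP6V0D1 also without parental vehicle replicate 1 (0.0771).

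**Figure D2:**
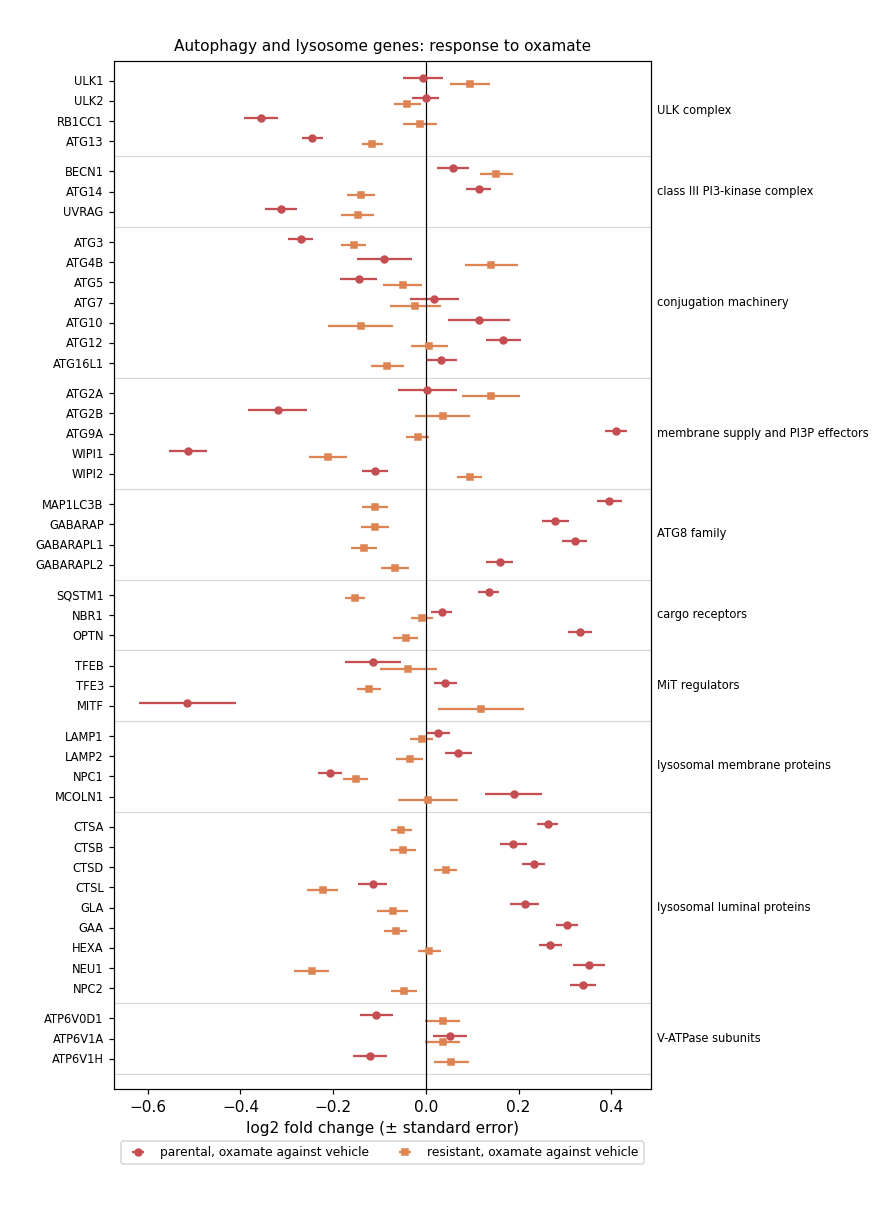
Log2 fold change (oxamate against vehicle, ± standard error) of the 45 genes in parental and in resistant cells, ordered by role. Parental values run from -0.51 to 0.41 and resistant values from -0.25 to 0.15. ATG8 family and luminal proteins lie right of 0 in parental cells, except CTSL, and near or left of 0 in resistant cells.

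Upstream of the ATG8 proteins the changes in parental cells went in both directions. ATG9A, the lipid scramblase whose vesicles seed the autophagosome, was at 124, 123 and 122 CPM after vehicle and at 163, 167 and 159.8 CPM after oxamate. The groups did not overlap and the log2 fold change, 0.41 ± 0.0233 (edgeR adjusted p = 1.06e-09), was the largest rise among the 45 genes. RB1CC1 (FIP200), the scaffold of the ULK complex, was at 83.3, 84.8 and 93.9 CPM after vehicle and at 67.2, 67.9 and 69.2 CPM after oxamate, all 3 below every vehicle library. Its log2 fold change was -0.36 ± 0.0368 (edgeR adjusted p = 6.57e-07). ATG13, the ULK subunit that takes up mTORC1 signals, fell by 0.24 on the log2 scale, while the kinases ULK1 (-0.01) and ULK2 (0.00) did not pass the test. ATG2B, a lipid transfer protein, was at 14.9, 15.98 and 16.2 CPM after vehicle and at 12.7, 12.4 and 12.6 CPM after oxamate, a log2 fold change of -0.32 ± 0.0632 without overlap. WIPI1, which binds the phosphatidylinositol 3-phosphate made by the class III kinase, fell by 0.51 ± 0.041 on the log2 scale and its relative WIPI2 by 0.11. ATG2A, the paralog of ATG2B, was at 0.00 (edgeR adjusted p = 0.975), but without parental oxamate replicate 3 it was lower, at -0.115 (adjusted p = 0.0141).

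In the class III kinase complex, ATG14, which directs the complex to sites of autophagosome formation, was at 45.5, 46.9 and 47.7 CPM after vehicle and at 51.2, 51.0 and 49.2 CPM after oxamate. It rose by 0.11 ± 0.0278 without overlap, a call lost by library size alone (adjusted p = 0.238). UVRAG, the subunit of the endosomal form of the complex, fell by 0.31 ± 0.0344, and BECN1, its core scaffold, was at 0.06 (edgeR adjusted p = 0.16). Of the 7 conjugation genes 3 changed: the ubiquitin-like ATG12 rose by 0.17, the E2-like enzyme ATG3 fell by 0.27 and ATG5, the partner of ATG12, fell by 0.14 on the log2 scale. The other 4 were the E1-like ATG7, the E2-like ATG10, the protease ATG4B and ATG16L1, with values from -0.09 to 0.11, none past the test in the main fit. After oxamate ATG4B was at 20.01, 21.42 and 25.25 CPM, highest in the library rich in nuclear-retained RNA. Of 18 alternative fits, ATG4B passed the test in 4, with values down to -0.209, and ATG10 in 2. Of the cargo receptors, OPTN rose by 0.33 ± 0.0264 and SQSTM1 (p62) by 0.14 ± 0.0226, and NBR1 was at 0.03 (edgeR adjusted p = 0.224). The autophagy factors as a whole had 9 higher and 8 lower, with a median of 0.03, and the lysosomal genes 10 higher and 4 lower, with a median of 0.19. When counts were scaled by library size alone, 16 genes were higher and 16 lower, not all of them those called with TMM, with the ATG8 family still 4 of 4 higher and the luminal proteins 8 of 9 higher.

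The second comparison asked the same of resistant cells. Fewer of the 45 genes changed than in parental cells, and most of those that did were lower: 2 rose and 13 fell, or 33.3%, beside 21.5% of all genes tested. The higher genes made up 4.44% of the 45, beside 9.01% of all genes, and the lower ones 28.9%, beside 12.5%. No member passed 1.5-fold, as 1.32% of all genes did (1.16% higher and 0.158% lower), nor by the study's rule, which 2.5% of all genes met (2.23% higher and 0.274% lower), and the median over the 45 was -0.04. The ATG8 family, which had risen in parental cells, was lower here for MAP1LC3B, GABARAP and GABARAPL1. MAP1LC3B was at 197, 192 and 194 CPM after vehicle and at 178, 184 and 178 CPM after oxamate in resistant cells. All 3 oxamate libraries lay below the vehicle libraries, with a log2 fold change of -0.11 ± 0.0273 (edgeR adjusted p = 0.0106). GABARAP, at -0.11 ± 0.0305 (edgeR adjusted p = 0.0193), lost its call without any 1 of 4 libraries, and MAP1LC3B without resistant vehicle replicate 1 (adjusted p = 0.0515) or resistant oxamate replicate 3 (0.0501). For GABARAP these were vehicle replicates 1 and 2 and oxamate replicates 2 and 3 (adjusted p = 0.0609 to 0.0755).

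Of the luminal proteins, NEU1 and CTSL fell in resistant cells and 7 did not pass the test. NEU1 was at 40.0, 41.9 and 39.4 CPM after vehicle and at 33.9, 34.7 and 33.6 CPM after oxamate. The groups did not overlap and the log2 fold change was -0.25 ± 0.0372 (edgeR adjusted p = 0.000358), opposite in sign to that in parental cells. CTSL was at 124, 125 and 116 CPM after vehicle and at 106, 105 and 101 CPM after oxamate, a log2 fold change of -0.22 ± 0.0326, also without overlap. NPC1 fell by 0.15. The other falls were WIPI1 at -0.21, ATG3 at -0.16, SQSTM1 at -0.15, UVRAG at -0.15, ATG14 at -0.14, GABARAPL1 at -0.13, TFE3 at -0.12 and ATG13 at -0.12. BECN1 rose by 0.15 and WIPI2 by 0.09. The WIPI2 call was lost without resistant vehicle replicate 1 or oxamate replicate 2 or 3 (adjusted p = 0.0752 to 0.133), and the UVRAG call without oxamate replicate 3 (0.0544). Without the 2 libraries rich in nuclear-retained RNA the count was 24, with 5 higher and 19 lower, and with that RNA as a covariate it was 11, with 1 higher and 10 lower. The calls lost with the covariate were those of MAP1LC3B, GABARAP, UVRAG and WIPI2 (adjusted p = 0.0631 to 0.269).

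The third comparison set resistant against parental cells, both after vehicle. It shares its parental libraries with the first comparison and its resistant libraries with the second, so these are not independent of it. The 4 members of the ULK complex were higher in resistant cells, and the 4 ATG8 genes and most luminal proteins were lower. In all, 14 of the 45 genes were higher and 23 lower, or 82.2%, beside 75.7% of all genes tested. The higher genes made up 31.1% of the 45, beside 38.4% of all genes, and the lower ones 51.1%, beside 37.3%. More than 1.5-fold, as 23.1% of all genes were, 3 genes were higher (6.67%, beside 17%) and none was lower, as 6.09% of all genes were. These 3 were ATG4B, ATG2B and MITF, the same by the study's rule, which 23.4% of all genes met (17.2% higher and 6.14% lower). The split depends on the scaling: by library size alone the all-gene median shifted up by 0.219 (log2), and 24 of the 45 were higher and 11 lower. Directions are thus relative to the median gene.

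ATG4B, the protease that primes ATG8 proteins and removes them from lipid, was at 23.5, 24.4 and 23.4 CPM in parental and at 36.3, 37.2 and 35.8 CPM in resistant cells. Every resistant library was above every parental one, and the log2 fold change was 0.62 ± 0.057 (edgeR adjusted p = 6.85e-08). ATG2B stood at 24.3, 21.5 and 25.6 CPM in resistant cells, against the 14.9 to 16.2 CPM given above for parental cells. Its log2 fold change was 0.60 ± 0.0594 (edgeR adjusted p = 1.5e-07). RB1CC1 stood at 122, 119 and 119 CPM in resistant cells, above all parental values, with a log2 fold change of 0.46 ± 0.0359. The other ULK complex members were higher by 0.50 for ULK2, 0.23 for ATG13 and 0.20 for ULK1. All 4 were also higher by library size alone. That scaling shifted the all-gene median up by 0.219 here, so genes higher with TMM could not turn lower. With the covariate for nuclear-retained RNA the ULK1 call was lost (adjusted p = 0.113). SQSTM1, which links ubiquitinated cargo to ATG8 proteins, was higher by 0.37 ± 0.0226.

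On the lower side, ATG9A was at 90.7, 91.0 and 92.4 CPM in vehicle-treated resistant cells, which gave a log2 difference of -0.43 ± 0.0238 (edgeR adjusted p = 1.71e-10). ATG14 was at 35.6, 34.7 and 35.2 CPM, which gave -0.41 ± 0.0286. Neither overlapped the parental libraries. The ATG8 family was lower by 0.14 to 0.38 on the log2 scale, but by library size alone 2 of the 4 were lower and GABARAPL2 was higher at 0.08. Of the luminal proteins 7 were lower and HEXA was higher at 0.14, with a median of -0.21, and by library size alone 3 were lower and 3 higher. CTSL was lower by 0.56 ± 0.0317, GLA by 0.47 ± 0.0325 and NEU1 by 0.31 ± 0.0352, and these 3 were lower under every scaling used. GLA was at 55.9, 53.8 and 53.9 CPM in parental and at 40.2, 39.8 and 37.8 CPM in resistant cells. ATP6V0D1, the subunit that joins the 2 sectors of the V-ATPase, was lower by 0.47 and LAMP1 by 0.31. OPTN passed at 0.06 (edgeR adjusted p = 0.0479) with overlapping libraries and lost its call without any 1 of 5 libraries (adjusted p = 0.0661 to 0.237).

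**Figure D3:**
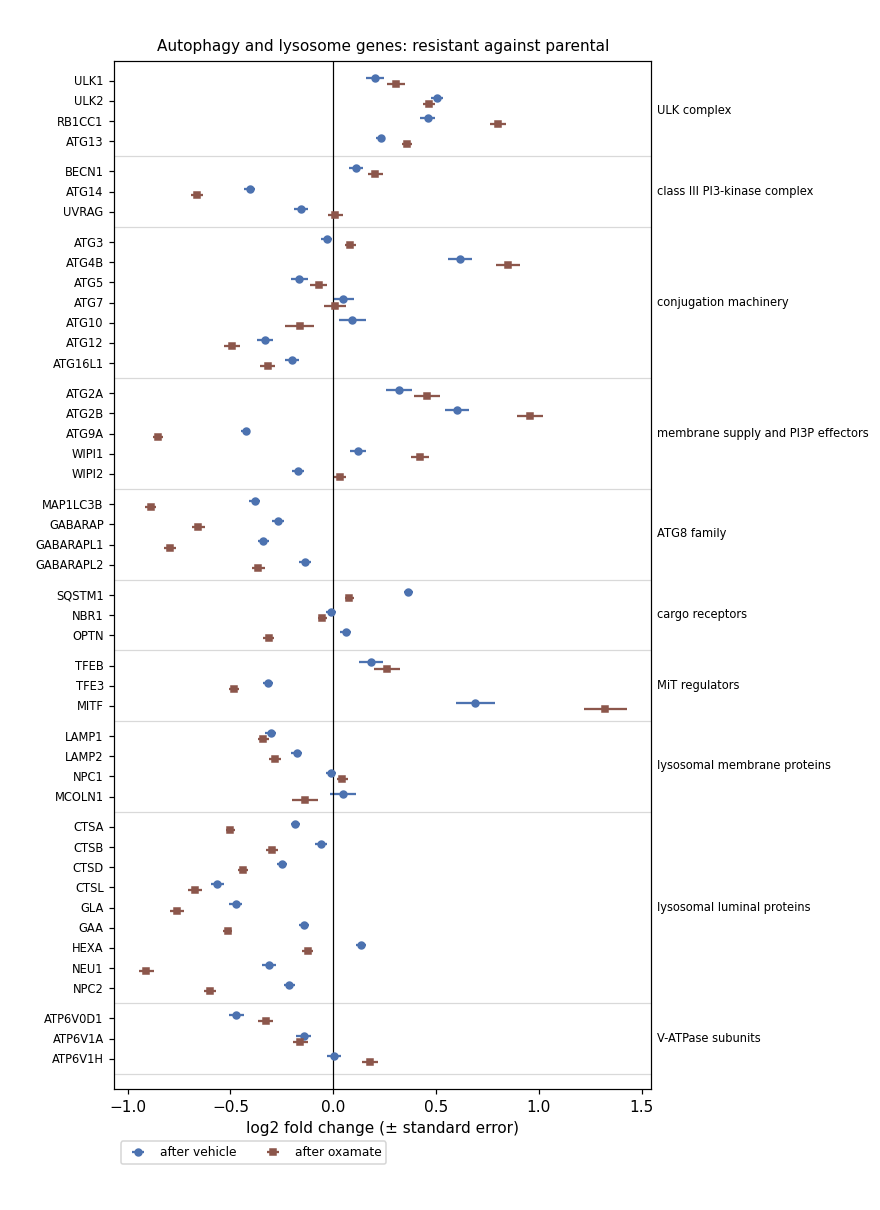
Log2 fold change (resistant against parental cells, ± standard error, TMM scaling) of the 45 genes after vehicle and after oxamate, ordered by role. The ULK complex lies right of 0 in both comparisons, by 0.20 to 0.80, and the ATG8 family left of 0, by 0.14 to 0.89. By library size alone GABARAPL2 after vehicle moves to the right of 0.

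The fourth comparison set resistant against parental cells after oxamate, and it shares libraries with the first 3. It held the larger differences: 14 genes were higher and 25 lower, or 86.7%, beside 80.3% of all genes tested. The higher genes made up 31.1% of the 45, beside 40.6% of all genes, and the lower ones 55.6%, beside 39.7%. More than 1.5-fold, 13 of the 45 differed (28.9%, beside 34.1% of all genes), 4 higher (8.89%, beside 22.7%) and 9 lower (20%, beside 11.4%). The study's rule called the same numbers, beside 34.3% of all genes (22.9% higher and 11.4% lower). The 4 were RB1CC1, ATG4B, ATG2B and MITF, and the 9 were ATG14, ATG9A, MAP1LC3B, GABARAP, GABARAPL1, CTSL, GLA, NEU1 and NPC2. By library size alone the all-gene median shifted up by 0.325 and 24 of the 45 were higher and 14 lower.

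All 9 luminal proteins were lower in resistant cells after oxamate, with a median log2 fold change of -0.51, and by library size alone 7 were lower and HEXA was higher at 0.20. NEU1 had the lowest value, -0.91 ± 0.0362 (edgeR adjusted p = 1.38e-12), its 60.8 to 65.8 CPM in parental cells standing against 33.6 to 34.7 CPM in resistant cells. GLA was at 63.1, 62.6 and 64.0 CPM in parental and at 37.4, 38.7 and 36.0 CPM in resistant cells, a log2 fold change of -0.76 ± 0.0332 without overlap. CTSL followed at -0.67 ± 0.0323. NPC2 stood at 124, 127 and 119 CPM in resistant cells, a log2 fold change of -0.60 ± 0.0287, and at 128, 131 and 122 CPM in the same cells after vehicle. GAA (-0.51), CTSA (-0.50), CTSD (-0.44), CTSB (-0.30) and HEXA (-0.13) completed the class.

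The ATG8 family was lower by a median of 0.73 on the log2 scale. MAP1LC3B led at -0.89 ± 0.0272 (edgeR adjusted p = 6.34e-14), followed by GABARAPL1 at -0.79 ± 0.0274, GABARAP at -0.66 ± 0.0303 and GABARAPL2 at -0.36 ± 0.0296. GABARAPL1 was at 61.4, 61.1 and 59.2 CPM after vehicle and at 53.6, 55.4 and 56.7 CPM after oxamate in resistant cells, below all 6 parental libraries. GABARAP, at 132, 133 and 129 CPM after vehicle and 124, 121 and 120.1 CPM after oxamate, was also below all 6. By library size alone 3 of the 4 were lower, and GABARAPL2 was at -0.04 and no longer passed (adjusted p = 0.215). ATG9A was at 90.0, 91.6 and 89.0 CPM in oxamate-treated resistant cells, which gave a log2 difference of -0.85 ± 0.0241. ATG14 was at 31.8, 31.9 and 32.0 CPM, which gave -0.66 ± 0.0295. Neither overlapped a parental library.

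RB1CC1 was at 117, 121 and 119 CPM in oxamate-treated resistant cells, above all parental libraries, a log2 fold change of 0.80 ± 0.0371 (edgeR adjusted p = 8.13e-12). ATG2B was at 22.7, 24.8 and 25.6 CPM, which gave 0.96 ± 0.0632 and was nearly the level it had in these cells after vehicle. ATG4B was at 20.01, 21.4 and 25.2 CPM in parental and at 40.8, 40.1 and 39.7 CPM in resistant cells, a log2 fold change of 0.85 ± 0.059. WIPI1 was higher by 0.42 and ATG2A by 0.46. SQSTM1 was still higher, by 0.08, while OPTN was lower by 0.31 and NBR1 by 0.05. The calls closest to the threshold were NBR1 (edgeR adjusted p = 0.0471), lost without any 1 of 5 libraries (adjusted p = 0.057 to 0.207), ATG10 (edgeR adjusted p = 0.0406), lost without any 1 of 4 (0.0595 to 0.166), and ATG3 (edgeR adjusted p = 0.0117), lost without parental oxamate replicate 3 (0.064) or resistant oxamate replicate 2 (0.0549).

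The MiT regulators act once they reach the nucleus, which RNA levels do not measure. Their RNA did not move as one. MITF was at 2.64, 2.74 and 2.64 CPM in vehicle-treated and at 1.91, 1.87 and 1.84 CPM in oxamate-treated parental cells. In resistant cells MITF was at 4.42, 3.66 and 4.88 CPM after vehicle and at 4.73, 4.97 and 4.38 CPM after oxamate. It fell with oxamate in parental cells without overlap, by 0.51 ± 0.105 (edgeR adjusted p = 0.000581), and every resistant library was above every parental one. The resistant cells were higher by 0.69 ± 0.0946 after vehicle (edgeR adjusted p = 6.38e-06) and by 1.32 ± 0.104, or 2.5-fold, after oxamate (edgeR adjusted p = 5.66e-09). TFE3 ran the other way: it was at 210.4, 206 and 201 CPM in vehicle-treated parental cells and at 163, 170.4 and 162 CPM in vehicle-treated resistant cells, with no overlap and a log2 fold change of -0.32 ± 0.0255. After oxamate TFE3 was at 213, 213 and 209.8 CPM in parental and at 152, 152 and 152 CPM in resistant cells, a log2 fold change of -0.48 ± 0.0258. TFEB was at 6.04, 5.63 and 5.82 CPM after vehicle and at 5.44, 5.33 and 5.40 CPM after oxamate in parental cells, a difference that did not pass the test (edgeR adjusted p = 0.119). In resistant cells TFEB was at 6.35, 6.95 and 6.59 CPM after vehicle and at 6.62, 6.64 and 6.14 CPM after oxamate, higher than in parental cells by 0.19 ± 0.0591 and 0.26 ± 0.0624. The TFEB call after vehicle was lost without resistant vehicle replicate 2 (adjusted p = 0.0518) and with DESeq2 (0.0559). TFEC, the remaining member of the family, was under the floor on average in all 4 groups.

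**Figure D4:**
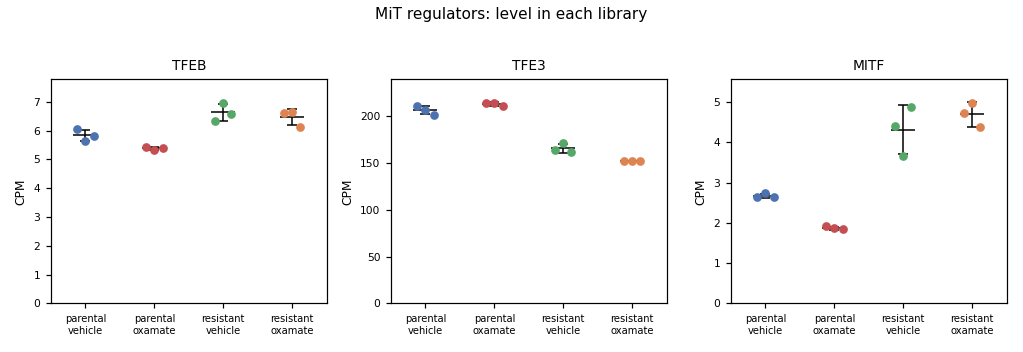
Level in CPM (linear axes from 0) of TFEB, TFE3 and MITF in each of the 12 libraries, by group. Points are libraries, the horizontal bar is the mean and the error bar the SD of 3 libraries. MITF lies between 3.66 and 4.97 CPM in resistant and between 1.84 and 2.74 CPM in parental libraries, while TFE3 is lower in resistant cells.

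The difference between the oxamate responses of resistant and parental cells was tested as a contrast of its own. Where it had to pass both the adjusted test and 1.5-fold, it was called for 2 of the 45 genes (4.44%, beside 7.52% of all genes tested, 4.99% higher and 2.53% lower): MITF at 0.63 ± 0.141 (edgeR adjusted p = 0.00172) and NEU1 at -0.60 ± 0.0505 (edgeR adjusted p = 2.23e-07). Without resistant vehicle replicate 2 the difference was 0.53 for MITF and -0.57 for NEU1, both under 1.5-fold. The NEU1 difference was also under it without parental vehicle replicate 2, parental oxamate replicate 1 or parental oxamate replicate 2 (-0.58 in each case) and by library size alone (-0.49). With no limit on its size, the difference passed for 31 of the 45 genes (68.9%, beside 44.2% of all genes), 20 of them lower in resistant cells (44.4%, beside 21.4%) and 11 higher (24.4%, beside 22.7%). This split too is relative to the median gene. By library size alone the all-gene median of the difference shifted up by 0.105, and the median over the 45 went from -0.1051 to 0.0009. The 4 ATG8 genes were among the 20: MAP1LC3B at -0.51 ± 0.0382, GABARAPL1 at -0.45 ± 0.0384, GABARAP at -0.39 ± 0.0425 and GABARAPL2 at -0.23 ± 0.0414. ATG9A was at -0.43 ± 0.0338 and NPC2 at -0.39 ± 0.0404. OPTN, at -0.38 ± 0.0376, and SQSTM1, at -0.29 ± 0.032, were the receptors whose responses differed. RB1CC1 (0.34), ATG2B (0.36) and WIPI1 (0.30) were among the 11 whose response was higher in resistant cells.

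The same roles were followed in 7 further lists of genes of the pathway, also chosen with earlier results of these data known. Their counts stand beside the shares of all genes given above: 28.3% higher and 30.4% lower for oxamate in parental cells, 9.01% and 12.5% in resistant cells, 38.4% and 37.3% for the lines after vehicle, and 40.6% and 39.7% after oxamate. The luminal hydrolases outside the 45 had 24 of 40 tested genes higher and 2 lower after oxamate in parental cells, with a median of 0.17, and 3 higher and 8 lower in resistant cells. IDS, the iduronate sulfatase, had the smallest p in parental cells and rose by 0.55 ± 0.0297, from 101 to 148 CPM. Against parental cells, 11 were higher and 23 lower after vehicle and 10 higher and 25 lower after oxamate, where GM2A, the activator of ganglioside breakdown, was at -0.92 ± 0.0245. The median of this list after vehicle was -0.14. By library size alone the all-gene median shifted up by 0.219 after vehicle and 0.325 after oxamate. Directions between the lines are thus relative to the median gene in these lists too. IDUA, the iduronidase, was the 1 luminal gene whose responses differed by over 1.5-fold, at -0.63 ± 0.245 (edgeR adjusted p = 0.0477). The other V-ATPase subunits had 7 of 18 higher and 1 lower in parental cells. In resistant against parental cells after vehicle 2 were higher and 14 lower, with a median of -0.31. The 1 that fell in parental cells was ATP6V0A2, from 9.28 ± 0.387 to 4.95 ± 0.173 CPM (log2 fold change -0.90 ± 0.0569), and its response in resistant cells was higher by 0.86 ± 0.0801 (edgeR adjusted p = 5.96e-07). ATP6V0C, the ring subunit, was lower in resistant cells by 0.39 after vehicle and 0.65 after oxamate. Other lysosomal membrane proteins had 9 of 28 higher and 8 lower in parental cells and 11 higher and 11 lower between the lines after vehicle, close to the shares of all genes in both comparisons. TMEM55B, a phosphoinositide phosphatase that helps position lysosomes, was lower in resistant cells by 0.90 ± 0.0423 after vehicle and by 1.40 ± 0.0436 after oxamate.

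Of the other selective autophagy receptors, 5 of 12 rose and none fell in parental cells, while 1 rose and 4 fell in resistant cells. BNIP3L, a receptor for mitochondria that is also a known HIF target, went from 244 ± 9.55 to 395 ± 9.94 CPM in parental cells, a log2 fold change of 0.69 ± 0.0352. FAM134B, a receptor for the endoplasmic reticulum, was higher in resistant cells after vehicle by 0.96 ± 0.0594, and STBD1, a receptor for glycogen, fell in resistant cells by 0.31 ± 0.04. Of 20 other ATG and membrane genes 9 rose and 4 fell in parental cells. WDR45B, a relative of the WIPI proteins, rose by 0.61 ± 0.026, from 156 to 239 CPM, and was lower in resistant cells by 0.81 ± 0.0265 after oxamate. AMBRA1, a regulator of the class III kinase, fell in resistant cells by 0.12, and PIK3C3, its catalytic subunit, was higher in resistant cells after vehicle by 0.42 ± 0.0349. The fusion genes had 4 of 13 higher and 5 lower in parental cells and 0 higher and 2 lower in resistant cells, so few that they show nothing particular to the list beside the shares of all genes. VPS11 of the HOPS tether rose in parental cells by 0.24, RAB7A, the late endosomal GTPase, fell in resistant cells by 0.16, and VAMP8, the lysosomal SNARE, was lower in resistant cells by 0.49 and 0.84.

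Of 32 genes of mTORC1 and Rag signalling, 10 rose and 9 fell in parental cells, close to the shares of all genes, and 1 rose and 6 fell in resistant cells. RRAGD, a Rag GTPase that brings mTORC1 to the lysosome and is a known target of TFEB, rose in parental cells from 113 ± 1.9 to 152 ± 3.8 CPM (0.43 ± 0.0276), and was at -0.00 in resistant cells. DDIT4, an inhibitor of mTORC1, rose in parental cells by 0.20 and fell in resistant cells by 0.49 ± 0.0302, a difference between responses of -0.69 ± 0.0425 (edgeR adjusted p = 9.68e-09). RPTOR, the substrate-binding subunit of mTORC1, was higher in resistant cells after oxamate by 1.02 ± 0.0372, and RHEB, the GTPase that activates it, was lower after vehicle by 0.66 ± 0.0249. The remaining genes with the smallest p in their list were SIDT2 (0.40 in parental cells) and OSTM1 (-0.34 in resistant cells) of the lysosomal membrane, MAN2B1 (-0.13 in resistant cells) of the lumen and ATP6V1E1 (-0.14 in resistant cells) of the V-ATPase. CD68, a lysosomal membrane glycoprotein used as a macrophage marker, was at 160.4 ± 4.11 and 215 ± 4.62 CPM in parental cells after vehicle and oxamate, and at 60.8 ± 1.91 and 57.7 ± 1.24 CPM in resistant cells. It was named after its values were seen.

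**Figure D5:**
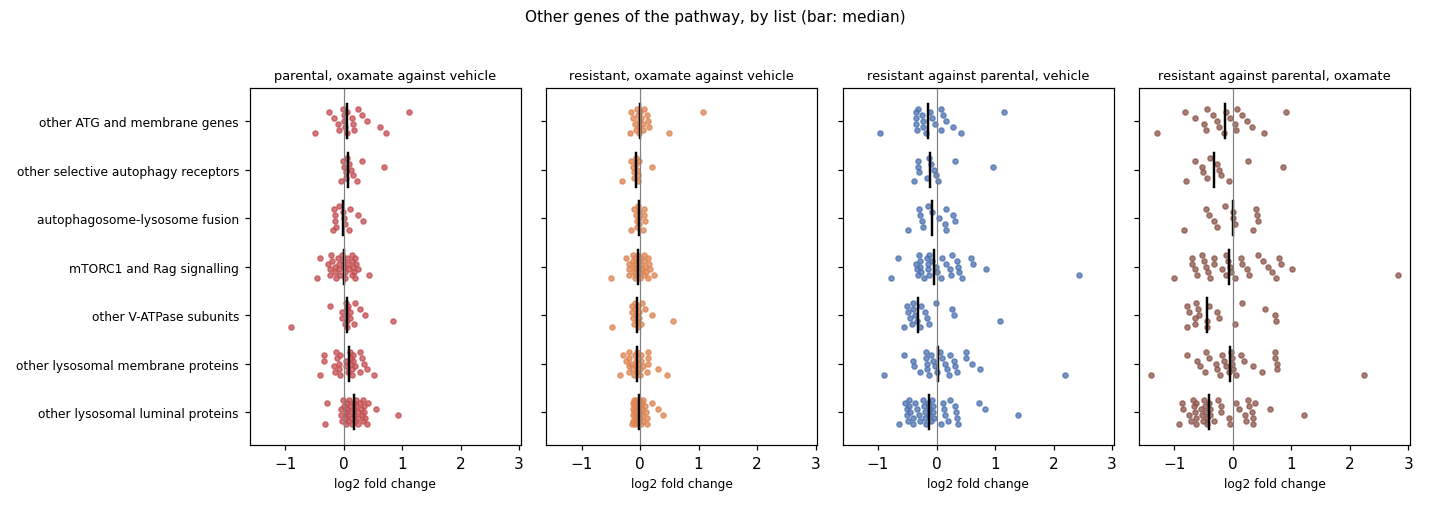
Log2 fold change (TMM scaling) of each gene tested in the 7 further lists, 1 panel per comparison. Each point is a gene and the black bar the median of its list. In parental cells after oxamate the luminal list has the highest median, 0.17, and against parental cells after oxamate the medians of the luminal and V-ATPase lists are -0.41 and -0.45, where scaling by library size alone shifts the all-gene median by 0.325.

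The 9 genes with a CACGTG were not one group in their values. In parental cells 3 of the 6 genes with TCACGTGA rose with oxamate, namely GAA, CTSA and MCOLN1, and 2 fell, namely ATP6V0D1 and ATG3, with a median of 0.11. All 3 genes with only CACGTG rose, namely NEU1, CTSD and ATG14, with a median of 0.23. Of the 29 genes with neither word, 10 rose and 8 fell, with a median of 0.03. In resistant against parental cells after oxamate the medians were -0.33, -0.66 and -0.05 in the same order. The genes are few and most of those with the words are lysosomal, so word and class cannot be told apart.

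Transcript length moved with the values. Over the 45 genes the Spearman correlation of median spliced length with log2 fold change was -0.37 for oxamate in parental cells, 0.24 in resistant cells, 0.38 for the lines after vehicle and 0.44 after oxamate. Over 13643 genes tested with a length the values were -0.19, 0.09, 0.20 and 0.26. The points are genes of the same 12 libraries and not independent replicates. ATG2B and RB1CC1, lower with oxamate in parental cells and higher in resistant cells, have median lengths of 13684 and 6624.5 bases, and GABARAP and NPC2, which went the other way, 762 and 1029 bases. WIPI1, at 1703.5 bases, moved as ATG2B and RB1CC1 did. ATG14, at 4742 bases, moved as GABARAP and NPC2 did, but the call of its rise in parental cells was lost by library size alone (edgeR adjusted p = 0.238). The part of length in these results was not tested.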

How the data were processed

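RNA-seq of 12 MIAPaCa2 libraries in 4 groups of 3 was used. The authors selected polyadenylated RNA on oligo(dT) beads, aligned reads with Bowtie2 (2.1.0) and deposited the expected counts of RSEM (1.2.15), without normalization. Versions and the build, hg38, are those of the submitters' processing notes. RSEM divides reads between near-identical copies, and 11.6% of the values were not whole numbers. Among the 45 genes 7 held such values: BECN1, ATG7, MAP1LC3B, SQSTM1, NPC1, CTSA and CTSL. The copy MAP1LC3B2 held 0.753% of the counts of MAP1LC3B and MAP1LC3B2 together.

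Expected counts were rounded. In edgeR 4.0.16 (R 4.3.3), filterByExpr left 14582 genes, libraries were scaled by TMM, and a quasi-likelihood model with 1 mean per group was fitted over all 12 libraries (glmQLFit, glmQLFTest). Genes were called at an adjusted p under 0.05, by the Benjamini-Hochberg method across every gene tested, and the difference between responses also needed to be over 1.5-fold. CPM values were rounded counts divided by the TMM-scaled library size, and standard errors were derived from the F statistic. Totals were 46698729 to 114222169 expected counts, and the floor of 3 counts covers counting error only. Within groups, the 12 pairs of libraries differed by more than sampling noise (chi-square per degree of freedom 2.07 to 31.8), and all were kept as separate libraries. The fit was tested on simulated counts.

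The members and lists were chosen with earlier results of these data known. All 45 genes are named, with values in every library for those that changed over 1.5-fold in a comparison and for the MiT regulators. Of each list the gene with the smallest p in each comparison is named, as is LDHA. Values seen first led to the naming of IDUA, CD68, SESN3, MCOLN3, CTSO, LAMTOR5 and ATG16L2, which the rule does not cover. Promoter sequences came from RefSeq (GRCh38.p14), and lengths, as the median spliced length of a gene's transcripts, from GENCODE release 29. Alternatives were other scalings (RLE, upper-quartile, library size alone), no filter, a minimum mean count of 25, unrounded counts, DESeq2 1.42.0, limma-voom (limma 3.58.1), fits on the 6 libraries compared, a covariate for nuclear-retained RNA, a block for the replicate number, other thresholds and each library left out. Leaving out both libraries rich in nuclear-retained RNA was an alternative chosen after seeing the data. One marker gene is not reported here. The ATAC-seq and metabolite data were not analysed here.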

Additional observations from a re-analysis of the deposited data

Results flagged for a closer look

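The oxamate responses of resistant and parental cells differed for 2 of the 45 genes at an adjusted p under 0.05 and over 1.5-fold. For MITF the difference was 0.63 on the log2 scale (edgeR adjusted p = 0.00172), from a fall of 0.51 in parental cells and a value of 0.12 (edgeR adjusted p = 0.386) in resistant cells. For NEU1 it was -0.60 (edgeR adjusted p = 2.23e-07), from a rise of 0.35 in parental cells and a fall of 0.25 in resistant cells. All 3 oxamate-treated libraries lay on the same side of the vehicle libraries in each line for NEU1, and in parental cells for MITF. Of 23 alternative fits, the MITF call was lost in 1, without resistant vehicle replicate 2. The NEU1 call was lost in 5, among them library size alone (-0.49).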

How the results depend on the processing

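The number of the 45 genes called in each direction was within 1.5 times the value reported under RLE factors, upper-quartile factors, no filter, a mean count of at least 25, unrounded counts, DESeq2 and limma-voom in all 5 comparisons. By library size alone the counts moved to 24 higher and 11 lower in resistant against parental cells after vehicle, to 24 higher and 14 lower after oxamate, and to 1 in all and 0 lower for the difference between responses. At an unadjusted p under 0.05 and over 1.5-fold, 0 genes (0 higher, 0 lower) were called for oxamate in parental cells and 0 (0 higher, 0 lower) in resistant cells, 3 (3 higher, 0 lower) for the lines after vehicle and 13 (4 higher, 9 lower) after oxamate. With no fold limit the difference between responses gave 31 (11 higher, 20 lower). For oxamate in resistant cells, 5 were higher in a fit of only 6 libraries, 1 with the covariate for nuclear-retained RNA, and 5 of 24 without both libraries rich in it. The cause of these shifts was not tested.

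Leaving out 1 library at a time gave 30 to 33 genes (17 to 20 higher, 12 to 13 lower) for oxamate in parental cells, 11 to 16 (1 to 2 higher, 10 to 14 lower) in resistant cells, 35 to 37 (12 to 14 higher, 23 to 24 lower) for the lines after vehicle, 37 to 39 (13 to 14 higher, 23 to 26 lower) after oxamate and 0 to 2 (0 to 1 higher, 0 to 1 lower) for the difference between responses.

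Replicate numbers did not pair the libraries: 3 of 18 same-numbered pairs deviated together with a correlation over 0.1 (range -0.074 to 0.245, against -0.203 to 0.119 for other numbers). With the replicate number as a block 32, 17, 38 and 39 genes were called in the 4 comparisons (19, 3, 14 and 14 higher, 13, 14, 24 and 25 lower) and 2 for the difference (1 higher, 1 lower), and no call of a member was lost.

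Log2 fold changes that turned sign by library size alone, where the value passed the test with either scaling, took the following values. After vehicle, resistant against parental cells: AMBRA1 0.0321, ATG16L1 0.0164, ATG3 0.187, ATG5 0.0545, ATP6V0A2 0.0829, ATP6V1A 0.0753, CTSA 0.0346, CTSB 0.159, DDIT4 0.205, GAA 0.0748, GABARAPL2 0.0816, IDS 0.09, LAMP2 0.0403, LDHA 0.0577, MAN2B1 0.144, NBR1 0.208, NPC1 0.209, NPC2 0.00562, OSTM1 0.166, UVRAG 0.0617, VPS11 0.0686 and WIPI2 0.0477. After oxamate: AMBRA1 0.269, ATG10 0.162, ATG16L1 0.00494, ATG5 0.255, ATP6V1A 0.165, COL1A2 0.073, CTSB 0.0265, HEXA 0.2, LAMP2 0.0413, MCOLN1 0.186, NBR1 0.272, OPTN 0.01, OSTM1 0.264 and SIDT2 0.168. For oxamate in parental cells LAMP2 was at -0.00548 and RAB7A at -0.0718. With upper-quartile factors MAN2B1 was at 0.000785, NBR1 at 0.065 and NPC1 at 0.0655 after vehicle, and AMBRA1 at 0.0312 and NBR1 at 0.0332 after oxamate. ATG2A, for oxamate in parental cells, was at -0.221 with the covariate for nuclear-retained RNA, at -0.115 to 0.0723 with 1 library left out (lowest without parental oxamate replicate 3), and at -0.115 without both libraries rich in that RNA.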

Other observations

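A few genes of the further lists differed more between the lines after vehicle than any of the 45 did, and they were named after their values were seen. SESN3, a sestrin that restrains mTORC1, was at 0.27 to 0.41 CPM in vehicle-treated parental and 1.64 to 1.99 CPM in vehicle-treated resistant cells, which gave a log2 difference of 2.43 ± 0.16 (edgeR adjusted p = 1.21e-09). MCOLN3, a relative of the channel MCOLN1, was at 0.40 to 0.51 CPM in parental and 1.93 to 2.35 CPM in resistant cells after vehicle, a log2 fold change of 2.20 ± 0.157 (edgeR adjusted p = 3.11e-09). CTSO, a cysteine cathepsin, was higher in resistant cells by 1.39 ± 0.122 after vehicle and by 1.22 ± 0.129 after oxamate. For each of the 3 genes every resistant library was above every parental library. LAMTOR5, a subunit of the Ragulator complex that anchors mTORC1 to the lysosome, was lower in resistant cells by 0.77 ± 0.04 after vehicle and by 1.00 ± 0.0407 after oxamate.

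Within oxamate-treated parental and within vehicle-treated resistant cells, ATG16L2, a relative of ATG16L1, was highest in the library rich in nuclear-retained RNAs. In parental cells after oxamate it was at 2.92, 2.65 and 5.48 CPM, and the library at 5.48 CPM was the one rich in those RNAs. In vehicle-treated resistant cells it was at 4.71, 4.65 and 5.72 CPM, with the highest value again in the library rich in them. The parental values of 2.92 and 2.65 CPM came at 544.3 to 556.9 CPM of those RNAs. The resistant values of 4.71 and 4.65 CPM came at 533.5 to 582.7 CPM of them. The part of nuclear-retained RNA in these values was not tested.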
